A study of Bos taurus with 12 samples.

Results

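Lingual antimicrobial peptide (LAP), tracheal antimicrobial peptide (TAP) and the polymeric immunoglobulin receptor (PIGR) are 3 products of epithelial surfaces, and their signals are described here in the endometrium (the lining of the uterus) of Japanese-Black cows. The genes were found by name in the probe annotation, which gave 1 probe for each of the 3 genes, 3 of 15208 non-control probes in all. They were chosen from earlier results of these arrays, above all their high summer values in the horn next to the corpus luteum (CL side), so that contrast and those that share its arrays are given as a description with no test. Biopsies date from cycle day 15, in summer or in autumn of consecutive years. They came from the CL-side horn, next to the ovary that bore the corpus luteum, a gland that makes progesterone, or from the other, non-CL-side horn. The 12 arrays fall into 4 groups of 3, which are CL-side summer, non-CL-side summer, CL-side autumn and non-CL-side autumn, with no agent given in any of them as far as the labels say. The labels give neither the year of a biopsy nor whether replicates of a group came from separate cows, so p-values measure only the spread between these samples.

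LAP and TAP are beta-defensins, small cationic peptides that epithelia release and that kill bacteria and fungi by disturbing their membranes. Both were first described in cattle, LAP in the tongue and TAP in the airway, and their transcripts are known to be induced in bovine epithelia by bacterial products through Toll-like receptors and NF-kappaB. PIGR works in the adaptive arm of mucosal defence: it sits on the basolateral face of epithelial cells, binds dimeric IgA and pentameric IgM that carry the J chain, carries them to the lumen and is cleaved there, which releases secretory immunoglobulin. In the uterus such secretions line the surface that meets semen, microbes and the conceptus. In the RefSeq gene table for ARS-UCD2.0, which was used for names and neighbours only, LAP and TAP lie on the same chromosome with 2 named protein-coding genes between them, SPAG11B and ZNF705A. LAP is followed there by the beta-defensin genes DEFB13, DEFB10, DEFB7 and DEFB1. PIGR lies on another chromosome between FCMR and FCAMR, which encode further receptors for immunoglobulins. Coordinates are left out, since no source used here names the build on which the array was designed.

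Beta-defensin transcripts resemble each other, so the probes are shown first. Each probe is 60 bases long, and 30 bases of each, as the scanner files give them, follow 5′ to 3′ with the longest run that the LAP and TAP probes share in capitals.
LAP, probe bases 31 to 60: actggatgcggAGTCAGAAactgtgccctt
TAP, probe bases 14 to 43: gatcaatgcccAGTCAGAAcgtgcgccctt
PIGR, probe bases 31 to 60: actagcatctatgagctggcacttgctaac
The run shared by the LAP and TAP probes was 8 bases. The PIGR probe shared no run above 5 bases with either, and has no capitals. The LAP probe shared 17 bases in a row with the probe of a neutrophil beta-defensin 9-like peptide (BNBD-9-like) and 11 with the probe named DEFB1. The TAP probe shared at most 8 bases with any other beta-defensin probe on the array, counting LAP. Cross-hybridisation between these transcripts cannot be measured from such data, and the part of related transcripts in the LAP and TAP signals was not tested.

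Signals are log2 values of the processed spot signal relative to the 75th percentile of the same array, so 0 is the 75th percentile and a step of 1 is a doubling. Between 79.2% and 84.1% of probes were well above background on an array. Signals at or below 0 numbered 2092 on CL-side autumn replicate 1 and 802 to 1329 on the other 11 arrays. The 75th percentile was 2007 on CL-side summer replicate 2 and 3516 to 4418 on the other 11 arrays. That array also correlated less with the rest (median r = 0.928) than the other arrays did among themselves (0.972 or more). The CL-side season and summer side differences of LAP, TAP and PIGR are given with and without it. Results for other genes, gene lists and correlations include it unless stated. All 23 epithelium markers and all 15 stroma markers on the array were well above background on at least 1 array. In bulk biopsies, fewer cells of a type and less RNA per cell cannot be told apart.

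By group means, LAP was highest on the CL side in summer and lowest there in autumn. Its log2 signal was 1.11, −0.99 and −3.25 on CL-side summer replicates 1, 2 and 3, against −6.67, −5.89 and −7.23 on CL-side autumn replicates 1, 2 and 3. Those groups did not overlap, and the gap between the lowest summer and the highest autumn array was 2.64. On the non-CL side it was −4.85, −3.64 and −4.17 in summer, against −3.92, −4.91 and −7.25 in autumn, and these groups overlapped. The unscaled signal spanned 26.21 to 9560 over the 12 arrays, and the LAP spot was well above background on all 12. The 3 highest LAP arrays of the 12 were the 3 CL-side summer arrays. Group means were −1.04 ± 2.18 for CL-side summer, −4.22 ± 0.61 for non-CL-side summer, −5.36 ± 1.71 for non-CL-side autumn and −6.60 ± 0.68 for CL-side autumn (SD, n = 3 each). In that order the ranges of neighbouring groups overlapped, except between CL-side summer and non-CL-side summer, which lay 0.39 apart.

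TAP had the same 2 top arrays as LAP, but its other arrays stood in another order. Its log2 signal was 0.96, −0.55 and −4.08 on CL-side summer replicates 1, 2 and 3, against −7.28, −3.16 and −7.01 on CL-side autumn replicates 1, 2 and 3. CL-side autumn replicate 2 had rank 3 of the 12 arrays for TAP, above CL-side summer replicate 3, whereas it had rank 9 for LAP and rank 11 for PIGR. On CL-side autumn replicate 1 the TAP spot was not well above background, and its value is the floor of −7.28, the level to which all dimmer signals were raised. On the non-CL side TAP was −4.75, −4.32 and −5.15 in summer, against −5.95, −5.02 and −7.28 in autumn. The last spot was well above background but was also raised to the floor. The non-CL-side summer and autumn arrays overlapped by 0.13, that is by 1 pair of arrays. TAP was well above background on 11 of 12 arrays, with an unscaled signal of 16.02 to 8619. Group means were −1.22 ± 2.59 for CL-side summer, −4.74 ± 0.41 for non-CL-side summer, −5.81 ± 2.30 for CL-side autumn and −6.08 ± 1.13 for non-CL-side autumn (SD, n = 3 each). Only CL-side summer and non-CL-side summer, 0.25 apart, did not overlap with the next group in that order.

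PIGR was measured well above background on all 12 arrays, at unscaled signals of 297.7 to 27210, so its differences are further from the floor than those of the beta-defensins. Its log2 signal was 1.87, 3.76 and −0.25 on CL-side summer replicates 1, 2 and 3, against −2.31, −2.87 and −2.58 on CL-side autumn replicates 1, 2 and 3. All 3 summer arrays lay above all 3 autumn arrays, with a gap of 2.06. On the non-CL side PIGR was −2.83, −0.57 and −1.44 in summer, against −2.29, −3.64 and −1.99 in autumn, and the groups overlapped. Its highest array was CL-side summer replicate 2, whereas LAP and TAP were highest on replicate 1 of that group. Group means were 1.79 ± 2.01 for CL-side summer, −1.61 ± 1.14 for non-CL-side summer, −2.59 ± 0.28 for CL-side autumn and −2.64 ± 0.88 for non-CL-side autumn (SD, n = 3 each). The 2 summer groups lay 0.32 apart and the lower 3 groups overlapped.

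**Figure D1:**
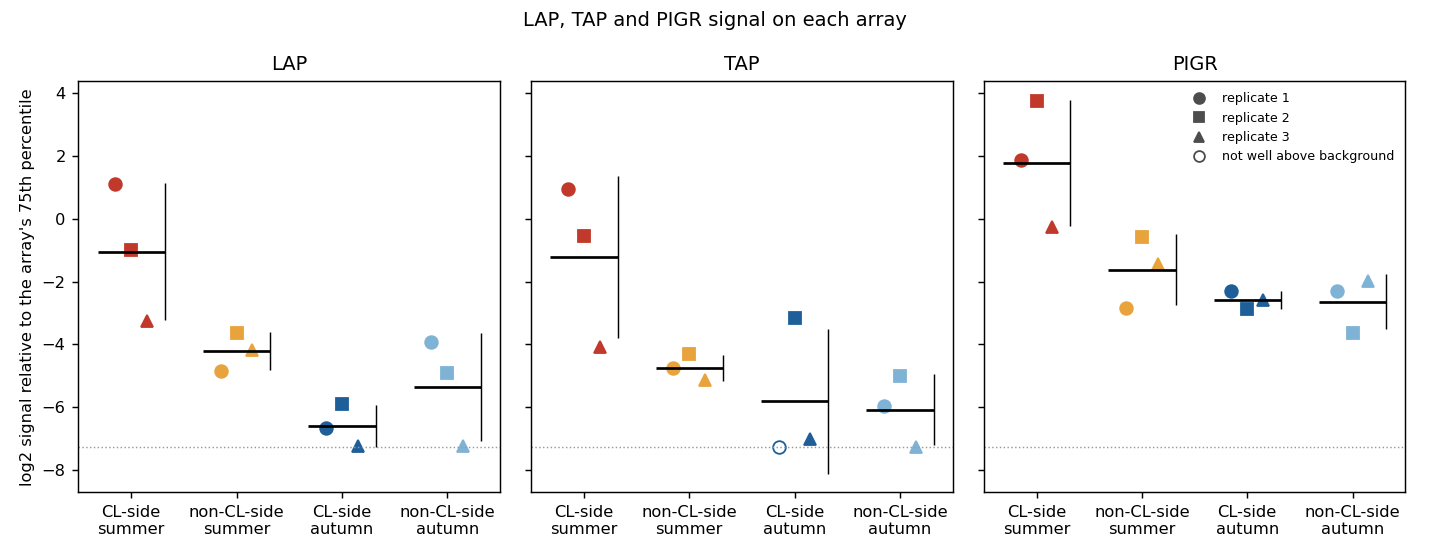
Log2 signal of LAP, TAP and PIGR relative to the 75th percentile of the array (y axis) in the 4 groups (x axis). Each point is 1 array, marker shapes are replicate numbers, the open point is not well above background, horizontal lines are group means, vertical lines are 1 SD and the dotted line is the floor of −7.28. The CL-side summer arrays are the 3 highest for LAP and PIGR, while TAP on CL-side autumn replicate 2, at −3.16, lies above 1 of them.

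The season change on the non-CL side shares no array with the contrast that led to the choice of these genes, and it was tested with limma across all kept probes, without pairing. Same-numbered horns deviated together over probes, so the non-CL-side change is not independent of that contrast. No probe passed an adjusted p of 0.05, so 0% of the 12383 tested were called, and LAP, TAP and PIGR were not called either. At an unadjusted p under 0.05 limma counted 139 probes, 1.12% of those tested, none of them LAP, TAP or PIGR. LAP differed by 1.14 ± 1.05 (SE), summer minus autumn, with a 95% interval of −1.18 to 3.46 (limma unadjusted p = 0.302, adjusted p = 1). TAP differed by 1.34 ± 1.31 (−1.57 to 4.25, unadjusted p = 0.331, adjusted p = 1) and PIGR by 1.03 ± 0.89 (−0.95 to 3.01, unadjusted p = 0.276, adjusted p = 1) in the same fit. These intervals include 0 and also differences above 3, so with 3 arrays a group the data do not bound the change tightly. The SEs, p-values and intervals also hold the spread of the arrays that chose the genes. For LAP, TAP and PIGR the SD was 2.18, 2.59 and 2.01 in CL-side summer. It was 0.61, 0.41 and 1.14 in non-CL-side summer and 1.71, 1.13 and 0.88 in non-CL-side autumn. The summer values lay above all autumn values for 2.62% of probes on this side, and for none of the 3 genes. Between same-numbered arrays the difference was above 0 for TAP in 3 of 3 pairs and for LAP and PIGR in 2 of 3. On the first slide alone, which held all summer arrays and autumn replicate 1 of each side, the LAP difference was −0.30 ± 1.5, TAP 1.21 ± 1.73 and PIGR 0.67 ± 1.53. In the authors' deposited table the differences were 0.45 ± 0.85 for LAP, 0.59 ± 0.96 for TAP and 1 ± 0.87 for PIGR.

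The season difference on the CL side was larger for each of the genes. LAP was higher in summer by 5.56 ± 1.05 (SE), a 47-fold ratio of the group means on the log2 scale, TAP by 4.60 ± 1.31 (24.2-fold) and PIGR by 4.38 ± 0.89 (20.8-fold). For TAP only 2 of the 3 autumn arrays were measured well above background and the other was set to the floor, so its size depends on the floor: with a floor lower by 2 it was 4.86 ± 1.41. With normexp background correction and quantile normalization the differences were 3.85 for LAP (14.4-fold), 3.36 for TAP (10.3-fold) and 4.13 for PIGR (17.5-fold). In the authors' deposited table they were 3.59 for LAP (12-fold), 2.90 for TAP (7.46-fold) and 4.34 for PIGR (20.3-fold). These values chose the genes and have no test. Among 12381 probes ordered by this difference, LAP had rank 3, TAP rank 6 and PIGR rank 8. No probe passed the threshold in this contrast (0% called), and 1228 probes had an unadjusted p under 0.05. LAP and PIGR were among the probes whose summer arrays all lay above the autumn arrays, a pattern that 7.97% of all probes showed on this side. With the slide as a block the differences were 4.87 ± 1.30 for LAP, 5.26 ± 1.66 for TAP and 4.07 ± 1.14 for PIGR, and the first slide by itself gave 5.63 ± 1.5 for LAP and 4.11 ± 1.53 for PIGR. That slide holds 1 CL-side autumn array, replicate 1, assumed to vary like the other groups, and on it TAP was not well above background, so no TAP value is given. LAP was dim there too, and its value was 2.68 higher in the deposited table. The LAP difference of the first slide thus depends on how dim spots are treated. Leaving out only that array gave 5.52 for LAP. Leaving out CL-side summer replicate 2 gave 5.53 ± 1.23 for LAP, 4.26 ± 1.52 for TAP and 3.39 ± 0.77 for PIGR.

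Within summer, the CL side exceeded the non-CL side for all 3 genes. The difference was 3.18 ± 1.05 for LAP, 3.52 ± 1.31 for TAP and 3.40 ± 0.89 for PIGR (SE), that is 9.05-fold, 11.5-fold and 10.6-fold. The CL-side arrays lay above all non-CL-side arrays for each of them, against 1.88% of all probes, and no probe was called (0%). Between horns of the same number, LAP was higher on the CL side by 5.97, 2.64 and 0.92 in pairs 1, 2 and 3, TAP by 5.72, 3.78 and 1.07, and PIGR by 4.70, 4.34 and 1.18. Without CL-side summer replicate 1 the differences of the group means were 2.10 for LAP, 2.43 for TAP and 3.37 for PIGR. Without replicate 2 they were 3.15 for LAP, 3.19 for TAP and 2.42 for PIGR, and without replicate 3 they were 4.28, 4.95 and 4.43. Pair 3 had the smallest side difference for each gene. This contrast shares the CL-side summer arrays with the one that chose the genes, so it is no separate support.

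In autumn the sides overlapped for each gene. CL side minus non-CL side was −1.24 ± 1.05 for LAP, 0.27 ± 1.31 for TAP and 0.05 ± 0.89 for PIGR (SE). The same-numbered horns differed in both directions, for LAP by −2.76, −0.98 and 0.01, for TAP by −1.33, 1.86 and 0.27 (with 1 array at the floor in pairs 1 and 3), and for PIGR by −0.03, 0.77 and −0.58 in pairs 1, 2 and 3. The CL-side arrays lay above all non-CL-side arrays for 2.35% of all probes and for none of the 3 genes, and 0% of probes were called. The season difference on the CL side exceeded that on the non-CL side by 4.42 ± 1.48 for LAP, 3.25 ± 1.86 for TAP and 3.35 ± 1.26 for PIGR, given without a test because it rests on the arrays that chose them.

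**Figure D2:**
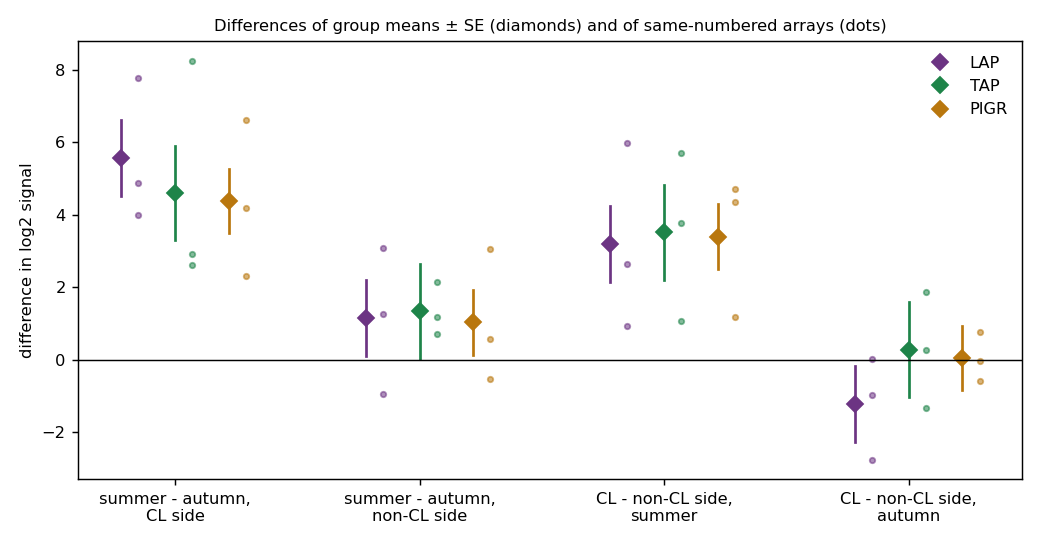
Differences in log2 signal (y axis) for the 4 contrasts (x axis), with diamonds for the difference of group means, bars for 1 SE and dots for same-numbered arrays. All dots lie above 0 for the CL-side season and the summer side contrasts, and on both sides of 0 in autumn.

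How far the 3 genes were high on the same arrays depended on which arrays were compared. Over the 12 arrays r was 0.90 for LAP and TAP, 0.81 for LAP and PIGR and 0.77 for TAP and PIGR, with Spearman's rho of 0.78, 0.72 and 0.42. The points share the array scaling and hold the 3 arrays on which all the genes were chosen as high. Without the 2 arrays farthest from the median, r was 0.65, 0.52 and 0.19 for these pairs. Over the 6 summer arrays r was 0.98 for LAP and TAP, 0.84 for LAP and PIGR and 0.85 for TAP and PIGR, whereas over the 6 autumn arrays it was 0.47, −0.38 and −0.62. In the authors' deposited table the autumn values were −0.16 for LAP and TAP, 0 for LAP and PIGR and −0.41 for TAP and PIGR, so the autumn relations depend on the source of the dim values, whereas the summer values there were 0.98, 0.83 and 0.85. The lowest LAP array of all 12 in the scanner values, non-CL-side autumn replicate 3, had rank 6 for PIGR.

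The 6 non-CL-side arrays, which are not part of the contrast that led to the choice of the genes, allow a test of 3 relations. LAP and TAP had r = 0.79 (exact permutation p = 0.0903, two-sided, adjusted over the 3 pairs p = 0.271) and rho = 0.49 (exact permutation p = 0.356, adjusted p = 0.533). LAP and PIGR had r = 0.28 (exact permutation p = 0.572, adjusted p = 0.818) and rho = 0.54 (exact permutation p = 0.297, adjusted p = 0.533). TAP and PIGR had r = 0.12 (exact permutation p = 0.818, adjusted p = 0.818) and rho = 0.09 (exact permutation p = 0.919, adjusted p = 0.919). None passed, although 6 arrays could have given a p as small as 0.00278. Leaving out the 2 arrays farthest from the median of the first gene gave r = −0.85 for LAP and TAP, so that relation rests on non-CL-side autumn replicate 3, without which r was −0.04 over 5 arrays. Within the non-CL side, the relation within a single slide could not be computed over 6 arrays, since the first slide holds 4 non-CL-side arrays and the second 2.

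**Figure D3:**
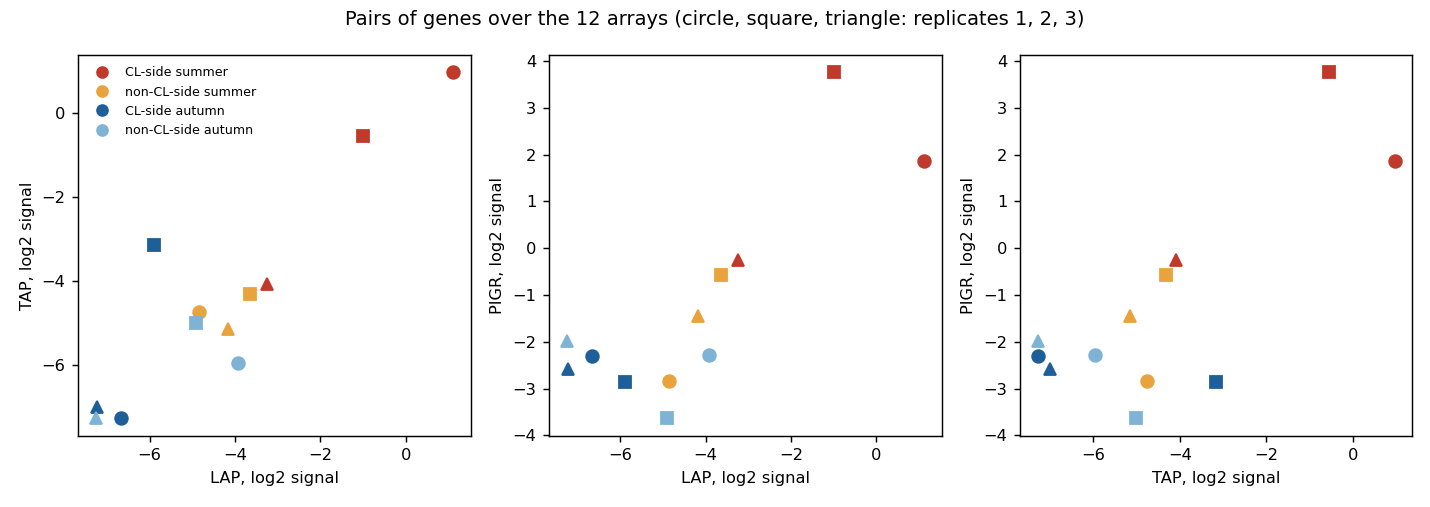
Log2 signal of 1 gene against another on the 12 arrays, coloured by group, with marker shapes for replicates. The CL-side summer arrays with replicate numbers 1 and 2 stand at the upper right of each panel, and CL-side autumn replicate 2 (dark blue square) lies off the LAP and TAP line with −5.89 for LAP and −3.16 for TAP.

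Other beta-defensins had smaller season differences on the CL side than LAP and TAP, which were chosen by that value. Like LAP and TAP, they had higher means on the CL side than on the non-CL side in summer, and they did so in autumn too. The array held 5 further beta-defensin probes, of which 4 passed the filter on dim probes, and 7 cathelicidin probes, of which 2 passed. Cathelicidins are antimicrobial peptides stored mainly in neutrophils. None of the 6 was called in the non-CL-side season change (limma adjusted p = 1 for each), in which 0% of all probes were called. DEFB13, the neighbour of LAP named BBD(C7) on the array, had a CL-side season difference of 1.92 ± 1.07 (SE). Its log2 signal was −1.51, −1.61 and −5.35 in CL-side summer, against −5.21, −3.13 and −5.89 in CL-side autumn, and those groups overlapped. Like TAP, it was high on CL-side autumn replicate 2. The BNBD-9-like peptide had a difference of 1.01 ± 0.96, BNBD-5, a beta-defensin of neutrophils, −0.11 ± 0.82, and the gene that the files name DEFB1 and the reference table EBD, enteric beta-defensin, −0.18 ± 1.14. In summer, CL side minus non-CL side was 2.66 for DEFB13, 2.43 for the BNBD-9-like peptide, 1.65 for DEFB1 and 1.12 for BNBD-5, so all 4 were above 0. In autumn it was 0.76, 1.24, 1.61 and 1.08 in the same order, against −1.24 for LAP and 0.27 for TAP.

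CL-side autumn replicate 2 was the highest of the 3 CL-side autumn arrays for all 5 of these beta-defensins. It had −2.78 for the BNBD-9-like peptide, against −4.72 and −5.77 on replicates 1 and 3, and −3.71 for BNBD-5, against −4.37 and −7.28. For BNBD-4 (DEFB4A), which did not pass the filter and was well above background on 4 of 12 arrays, it had −4.77, the highest value of the 12. LAP was also highest of the 3 there, at −5.89, but by a smaller step than TAP. The order within CL-side summer differed as well: DEFB1 was lowest on replicate 1, at −4.18, where LAP and TAP were highest, and highest on replicate 2, at 0.58. Over the 12 arrays the BNBD-9-like probe, which has the longest run in common with the LAP probe, correlated with LAP at r = 0.48. The DEFB13 probe, with 7 bases in a row but the most identical bases when aligned (32 of 45, against 26 of 32 for BNBD-9-like), correlated with LAP at r = 0.73.

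The cathelicidin probes varied little. CATHL6 had a CL-side season difference of 0.44 ± 0.23 and CATHL5 of −0.30 ± 0.31. The other 5 cathelicidin probes were well above background on at most 1 array each.

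**Figure D4:**
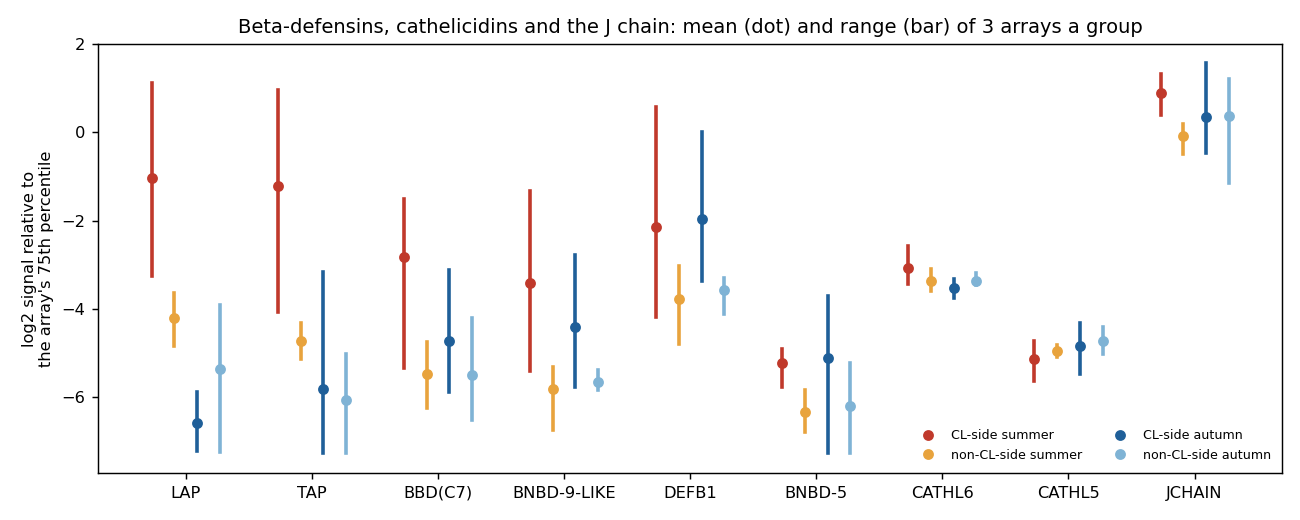
Log2 signal (y axis) of the kept beta-defensin, cathelicidin and J chain probes (x axis), as the mean (dot) and the range (bar) of 3 arrays for each group. Each gene is to be read against itself, since probes differ in brightness. LAP is the beta-defensin with the widest step between CL-side summer, at a mean of −1.04, and CL-side autumn, at −6.60.

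PIGR carries immunoglobulin that plasma cells make, and JCHAIN encodes the J chain that PIGR needs to recognise its cargo. JCHAIN was 1.32, 0.91 and 0.40 in CL-side summer, against −0.08, 1.56 and −0.46 in CL-side autumn, a difference of 0.54 ± 0.65 (SE), and the groups overlapped. Its highest array was CL-side autumn replicate 2, on which PIGR had rank 11 of 12. Of 12 kept genes for IgA transport, B and plasma cells, which do not include PIGR itself, none was called in any of the 4 contrasts. On the CL side all 12 were above 0 in the season difference of the scanner values, with a median of 0.38, against 0.023 over all probes. On the non-CL side 6 of the 12 were above 0, with a median of 0.01. IGHM, the heavy chain of IgM, differed on the CL side by 0.71 ± 0.44 and MS4A1, the B cell surface protein CD20, by 0.81 ± 0.41, with MS4A1 well above background on 8 of 12 arrays. FCGRT, the neonatal Fc receptor that carries IgG, differed by 0.19 ± 0.17. In the authors' deposited table MS4A1 gave −0.15, and the list genes CR2 and TNFSF13B gave −0.10 and −0.09, so not all 12 were above 0 there. JCHAIN, IGHM and FCGRT gave 0.54, 0.57 and 0.19 in that table.

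Other secreted antimicrobial proteins and the pathways known to induce LAP, TAP and PIGR were set beside them. Of 16 other antimicrobial genes, 13 were above 0 in the CL-side season difference (median 0.93) and 10 in that of the non-CL side (median 0.10), and none was called in either. The lactoferrin gene LTF, whose product binds iron, differed by 3.35 ± 1.45 on the CL side and −0.20 ± 1.45 on the non-CL side. S100A8, a subunit of calprotectin, differed by 1.99 ± 0.47 and 0.45 ± 0.47, and SAA3, an acute phase protein made in epithelia, by 1.94 ± 1.05 and 1.16 ± 1.05, in the same order. Of 49 genes of Toll-like receptor, IL-1, TNF, IL-17 and IL-22 signalling, 34 were above 0 on the CL side (median 0.20) and 31 on the non-CL side (median 0.06), with none called. CXCL8, a neutrophil chemoattractant, differed by 1.80 ± 0.83 on the CL side, and IL17RE, a receptor for the epithelial cytokine IL-17C, by 1.37 ± 0.52. IFNG, which is known to induce PIGR in epithelial cells, differed by 1.07 ± 0.24 but was well above background on 5 of 12 arrays. Its CL-side autumn values were −7.28 to −7.24, at or near the floor. In the authors' deposited table the CL-side difference was −0.10 for IFNG, 1.12 for CXCL8 and 1.16 for IL17RE. Of the antimicrobial genes, REG3G gave −0.15 there, against 0.66 in the scanner values, from which the counts were taken. LTF gave 3.35 in that table, and S100A8 and SAA3 gave 1.94 each.

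Markers of several cell types a biopsy can hold also had higher values in CL-side summer, where the 3 genes were high, and their part in the result was not tested. On the CL side 21 of 23 epithelium markers were above 0 in the season difference (median 0.65), 9 of 11 squamous and basal markers (0.49), 9 of 10 ciliated markers (1.22), 9 of 10 granulocyte markers (0.77) and 16 of 17 T and NK cell markers (0.57). None of the 15 stroma markers was above 0 (median −1.04), and 3 of 12 macrophage and dendritic cell markers were (median −0.33). The median over all probes was 0.023. No marker was called in any contrast. These counts are of the scanner values, and dim markers differ in the authors' deposited table. There the T and NK cell genes CD3D and NKG7 gave −0.13 and −0.24 on the CL side, against 0.46 and 0.16, so the count of that list is lower. The brighter GNLY of the same list gave 1.27, against 1.43. On the non-CL side 9 of 23 epithelium markers were above 0 (median −0.02) and 5 of 10 granulocyte markers (0.05). All 10 ciliated markers (0.68) and all 12 macrophage and dendritic cell markers (0.23) were above 0 there. So were 4 of 11 squamous and basal markers (−0.12), 10 of 17 T and NK cell markers (0.05) and 5 of 15 stroma markers (−0.05).

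Summed over its 23 genes, on the linear scale relative to the 75th percentile, the epithelium list was 70.3 to 124 in CL-side summer, 64.5 to 85.1 in non-CL-side summer, 56.4 to 68.1 in CL-side autumn and 61.9 to 89.6 in non-CL-side autumn. The granulocyte list was 14.3 to 221, 2.35 to 9.86, 4.13 to 9.67 and 3.24 to 10 in these groups. The stroma list was 62.8 to 151, 133 to 143, 160 to 198 and 128 to 143. The squamous and basal list was 35.1 to 62.0, 28.4 to 46.3, 33.8 to 47.8 and 25.2 to 43.9, and the T and NK cell list 4.15 to 11.4, 3.76 to 9.54, 3.26 to 4.96 and 3.27 to 7.50. The IgA, B and plasma cell list was 31.4 to 39.8, 31.5 to 32.8, 25.6 to 34.4 and 26.8 to 33.3. Of these lists, the CL-side summer range lay above that of every other group for the granulocytes alone, and there LTF, which also stands among the antimicrobial genes, made up 9.37 to 212 of the sum. Without LTF the other 9 granulocyte genes summed to 4.94 to 8.80 in CL-side summer, 2.16 to 3.22 in non-CL-side summer, 2.61 to 4.09 in CL-side autumn and 2.55 to 6.85 in non-CL-side autumn. The CL-side summer range then overlapped only that of non-CL-side autumn and lay above the other groups. In the squamous, granulocyte, T and NK cell, and macrophage lists, the markers well above background on no array were DSG1 among the squamous and basal genes, CATHL4 among those of granulocytes, CTLA4, ICOS and NCR1 among those of T and NK cells, and CD80 among those of macrophages and dendritic cells.

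Array by array, the beta-defensins and the epithelium list were highest on different CL-side summer arrays. To score a list on an array, each gene's log2 distance from its 12-array mean was taken and averaged over the list. On CL-side summer replicates 1, 2 and 3 the epithelium score was 0.11, 1 and −0.14, the granulocyte score 0.36, 1.5 and 0.67, and the stroma score −0.56, −0.91 and 0.21. LAP and TAP were highest on replicate 1, where the epithelium score was 0.11, and PIGR was highest on replicate 2, where the epithelium and granulocyte scores were highest too. On replicate 3 the epithelium score was below 0 and the stroma score above it, and LAP and PIGR had rank 3 of the 12 arrays and TAP rank 4. Over the 12 arrays the epithelium score correlated with PIGR at r = 0.77, with LAP at 0.49 and with TAP at 0.42, and the granulocyte score at 0.88, 0.56 and 0.62. The squamous and basal score correlated with PIGR at 0.89, with LAP at 0.75 and with TAP at 0.68, and the T and NK cell score at 0.80, 0.76 and 0.73, all as a description over arrays that share the same groups. Over the 6 non-CL-side arrays the epithelium score correlated with PIGR at 0.44, with LAP at −0.41 and with TAP at −0.32. In the same order the granulocyte score gave 0.82, −0.14 and −0.23, the squamous and basal score 0.51, 0.23 and 0.05, and the T and NK cell score −0.18, 0.08 and 0.09.

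The genes most like each member were named by the highest Pearson r over the 12 arrays among 5876 probes with a symbol, leaving out LAP, TAP and PIGR themselves, a description with no test since all share the groups on which the members were chosen. For PIGR these were KRT15 (r = 0.953), a keratin of basal epithelial cells, CYP4B1 (0.946), a cytochrome P450, CXCL2 (0.944), a neutrophil chemoattractant, MAPKAPK3 (0.941), a kinase downstream of p38, and GP2 (0.931), a glycoprotein known from pancreatic secretory granules and intestinal M cells. GP2 differed by 6.15 ± 1.56 (SE) between seasons on the CL side, CYP4B1 by 5.50 ± 1.30, KRT15 by 5.11 ± 1.15, CXCL2 by 3.58 ± 1.05 and MAPKAPK3 by 0.57 ± 0.20. CYP4B1 was well above background on 11 of 12 arrays, and its lowest value in non-CL-side summer was the floor of −7.28. Without the 2 arrays farthest from the median of PIGR, r was 0.66 for MAPKAPK3, 0.94 for GP2 and 0.92 for CXCL2.

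For TAP the list was DEFB13 (r = 0.906), NGB (0.890), which encodes neuroglobin, IFNG (0.865), GATD3 (0.863) and BLVRB (0.853), which encodes biliverdin reductase B. For LAP it was MX2 (0.866), an interferon-induced GTPase, CHIA (0.864), an acidic chitinase, IFNG (0.864), ATP6AP1 (0.852), an accessory subunit of the vacuolar proton pump, and PAM (0.840), which amidates peptide hormones. MX2 differed on the CL side by 1.97 ± 0.45, CHIA by 1.40 ± 0.31 and PAM by 0.53 ± 0.20. CHIA was at the floor on all 3 CL-side autumn arrays, and NGB was well above background on 8 of 12 arrays. MX2 was well above background on all 12, but its CL-side autumn values were −7.28 to −6.43, at or near the floor. IFNG, well above background on 5 of 12 arrays, stands in the lists of both LAP and TAP. The BNBD-9-like and BNBD-5 probes have no symbol and could not enter these lists. Without the 2 arrays farthest from the median of TAP, r with TAP was 0.68 for DEFB13, 0.51 for NGB, 0.43 for IFNG, 0.38 for GATD3 and 0.60 for BLVRB. The same check for LAP gave 0.75 for MX2, 0.86 for CHIA, 0.50 for IFNG, 0.73 for ATP6AP1 and 0.78 for PAM.

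The authors' deposited table holds their own log2 values, and the genes differ in how well it matches the scanner files. Its values equalled the scanner values at high signal: the median shift was 0.005 to 0.011 per array for spots above a signal of 1000. Below that the table was higher, by 0.657 to 1.874 for signals of 50 to 100, by 1.391 to 2.855 for signals of 25 to 50 and by 2.929 to 4.515 for signals up to 25, depending on the array. The steepest lift was on CL-side autumn replicate 1, whose lowest value in the table was −4.18, against −5.73 to −4.41 on the other arrays. No source used here says what was done to low signals.

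PIGR, whose signal never came below 297.7, differed by at most 0.11 between the table and the scanner files on any array. For LAP and TAP the 2 sources parted most on the dimmest arrays, CL-side autumn replicates 1 and 3 and non-CL-side autumn replicate 3. On non-CL-side autumn replicate 3 the deposited value was above the scanner value by 2 for LAP and 1.82 for TAP. The deposited values of LAP were 1.12, −0.98 and −3.19 in CL-side summer, against −4, −5.11 and −4.69 in CL-side autumn, which are 2.68, 0.77 and 2.54 above the scanner values on the autumn arrays. Those of TAP were 0.97, −0.53 and −3.96 in CL-side summer, against −4.17, −3.13 and −4.91 in CL-side autumn, 3.11, 0.03 and 2.10 above the scanner values. The order of the arrays also changed: in the deposited values CL-side autumn replicate 2 was the lowest of its group for LAP, whereas it was the highest in the scanner values. LAP in summer lay above LAP in autumn on every CL-side array in both sources.

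**Figure D5:**
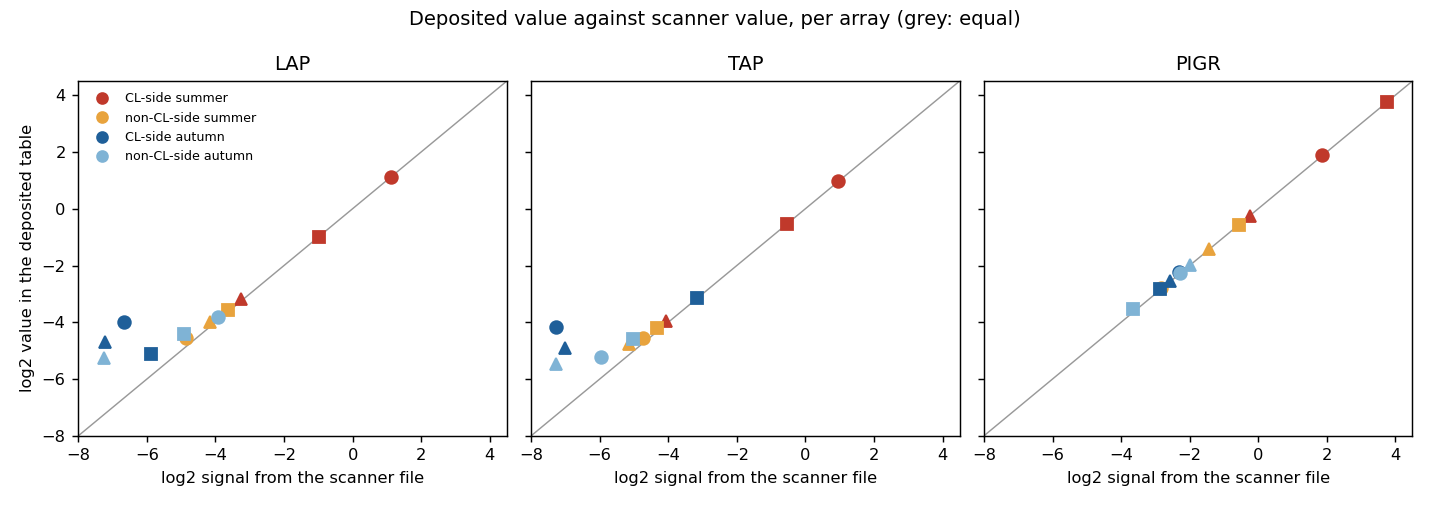
Value in the deposited table (y axis) against the value from the scanner file (x axis), both log2 relative to about the 75th percentile of the array, with 1 point per array and a grey line where both are equal. PIGR lies on the line throughout, while LAP and TAP leave it at the dim end, by up to 2.68 and 3.11.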

How the data were processed

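Total RNA of each biopsy, 400 ng per the labels' protocols, was labelled with Cy3, and each array carries 1 sample in 1 colour. Feature Extraction 9.5.1.1 read the images, per the file headers (9.5 in the submitters' processing notes). Per the same headers, the deposited processed signal is a background-subtracted intensity on a linear scale, not scaled between arrays. The deposited mean and local background intensities entered 1 alternative. The authors also deposited log2 values of the same arrays, which run in the same direction, are not centred per probe and have medians of −2.79 to −2.61 and 75th percentiles of 0.005 to 0.012; their treatment of low signals stays unknown. That table was an alternative.

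Intensities were divided by the 75th percentile of the array over non-control probes, put on the log2 scale and raised to a floor of −7.28, which held 2.06% of the kept values. For the floor, each array's dimmest probe still well above background was found, and the brightest of these 12 values was taken. Spots with an outlier flag (466 values) were dropped. A probe was kept where 1 or more groups had it well above background on every array, which held for 12404 of 15208. The files or the reference table gave a symbol to 6914 probes. limma 3.58.1 in R 4.3.3 fitted 4 group means to the 12 arrays (lmFit and eBayes, 8 residual degrees of freedom) with Benjamini-Hochberg adjustment over all kept probes, a threshold of 0.05 and two-sided tests. The fit was tested on simulated data. Correlations were tested by exact permutation in Python 3.11.15 with scipy 1.17.1.

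The members and the 11 gene lists were chosen with earlier results of these data known. Besides the members, the text names every kept beta-defensin, cathelicidin and JCHAIN, the 5 genes most correlated with each member, and from each list some of the up to 3 genes with the smallest p of the non-CL-side season change and the up to 3 with the widest CL-side season difference. Alternatives were another background correction and normalization, the deposited table, filters, floors, the slide and replicate number as blocks, and each array left out. Same-numbered horns of a season deviated together (r = 0.139 to 0.500 over probes, against −0.417 to 0.0315 for other numbers), as did same-numbered seasons of a side (0.110 to 0.345). The numbers were therefore taken as pairs, from the data and not from the labels, for the same-numbered differences and the replicate block alone. The main fit and the permutation tests did not use the pairing. All 6 summer arrays and autumn replicate 1 of both sides lay on the first slide, and autumn replicates 2 and 3 on the second. Precision is limited by the number of arrays.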

Additional observations from a re-analysis of the deposited data

How the results depend on the processing

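Of 260 recomputed differences of LAP, TAP and PIGR, 253 kept their sign and 256 stayed within the spread between replicates or, where tested, on the same side of the threshold with the same sign. The 7 that turned sign were LAP on the non-CL side on the first slide alone and 6 autumn side differences: TAP, 0.27, gave −1.33 on the first slide alone, where its CL-side spot was at the floor, −1.06 without CL-side autumn replicate 2 and −0.33 without non-CL-side autumn replicate 3, and PIGR, 0.05, gave −0.03, −0.08 and −0.45 on the first slide alone and without CL-side autumn replicate 1 or non-CL-side autumn replicate 2. Many of the 260 could not move. Leaving out an array outside a contrast, changing the filter or adding the replicate block returns the same difference. The spread between replicates is also wide: TAP on the CL side counts as within it at 2.90 in the deposited table, against 4.60. LAP on the CL side gave a season difference of 3.85 with normexp background correction and quantile normalization and 3.59 in the deposited table, against 5.56. On the first slide alone the season change of LAP on the non-CL side was −0.30, its autumn side difference was −2.76, and 1 probe (SOCS5, named after its value was seen) was called on the non-CL side; the cause was not tested. TAP has no value where only probes above background on all 12 arrays were kept. Leaving out 1 array at a time gave CL-side season differences of 4.48 to 6.66 for LAP, 3.50 to 6.02 for TAP and 3.39 to 5.40 for PIGR, summer side differences of 2.10 to 4.28 for LAP, 2.43 to 4.95 for TAP and 2.42 to 4.43 for PIGR, and non-CL-side season changes of 0.19 to 1.86 for LAP, with 0.19 without non-CL-side autumn replicate 3. The number of called probes was then 0 to 7 for the CL-side season difference (2 without CL-side summer replicate 1, 4 without CL-side summer replicate 3, 7 without CL-side autumn replicate 3), 0 to 1 for the side difference in summer (1 without CL-side summer replicate 3) and 0 to 6 for that in autumn (6 without CL-side autumn replicate 3). None of these probes was LAP, TAP or PIGR. The 2 were C8B and an unnamed probe, the 4 were SPINT1, ING5 and 2 unnamed probes, and the 1 was unnamed, all seen after their values. With the replicate block the non-CL-side season change of LAP was 1.14 ± 0.83 (SE, limma adjusted p = 1), and the block changed no call. Correlations on the non-CL side ranged with 1 array left out from −0.04 to 0.95 for LAP and TAP, −0.04 to 0.88 for LAP and PIGR and −0.40 to 0.34 for TAP and PIGR, the lowest without non-CL-side autumn replicate 3 for the first pair and without non-CL-side summer replicate 2 for the other two, and LAP and TAP gave −0.85 without the 2 arrays farthest from the median. Signals near the floor limit the beta-defensins: the low end of LAP and TAP in autumn depends on how dim spots are treated, while PIGR lay above that range on all 12 arrays.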
